A study of Saccharomyces cerevisiae with 9 samples.

Results

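The 56 genes described here encode the proteins of the cytosolic small (40S) ribosomal subunit of budding yeast, *Saccharomyces cerevisiae*, from *RPS0A* to *RPS31*. They were taken by name from the 7127 genes in the count tables, and the rule used no measured value. They form 24 pairs, in which copies A and B at separate places in the genome encode the same or nearly the same protein, and 8 genes with a single copy. The study asked how gene expression differs between subphases of log growth. Cells of 1 strain were harvested in early, mid and late log, with 3 biological replicates each, called early log 1 to late log 3 here. All 9 cultures were MATa with the alleles ade2-1, ura3-1 and trp1-1, besides leu2-3,112 and also his3-11 and can1-100, and carried RPA135-(HA)3-(His)7::TRP1, a tagged RNA polymerase I subunit, so the strain called wild-type is a tagged one in every group. They were grown at 30 °C in YPD, a rich glucose medium, and polyadenylated RNA was sequenced.

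The small subunit binds the mRNA and reads its codons, and its proteins fold the 18S rRNA into a head and a body with the mRNA passing between them. Yeast makes ribosomal proteins from some of its most active genes, which are bound by Rap1 and, through it, by Fhl1, Ifh1 and Sfp1, and which respond to nutrients through the TORC1 and protein kinase A pathways. Most of the duplicated genes are remnants of a whole-genome duplication, and many carry an intron, which is rare among yeast genes. Here 36 of the 56 genes had an intron, and both copies had one in 17 of the 24 pairs. Of the 56 genes, 22 encode proteins of the head and 34 proteins of the body.

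The copies can be told apart by RNA-seq only where their sequences differ. The coding sequences of *RPS28A* and *RPS28B*, the pair whose balance changed most clearly below, are shown because every 50-base window of either is unique in the genome. Both are 204 bases from start to stop codon and differ at 24 bases, which are in capitals and change 1 amino acid. *RPS28A* (YOR167C) lies at chrXV:648804-649007 on the minus strand and *RPS28B* (YLR264W) at chrXII:673131-673334 on the plus strand of R64, and each is given 5′ to 3′ in the direction of transcription.
RPS28A: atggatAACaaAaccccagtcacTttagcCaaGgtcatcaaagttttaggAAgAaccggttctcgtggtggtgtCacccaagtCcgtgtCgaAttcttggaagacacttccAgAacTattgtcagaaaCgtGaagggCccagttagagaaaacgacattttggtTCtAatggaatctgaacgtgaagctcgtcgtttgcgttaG
RPS28B: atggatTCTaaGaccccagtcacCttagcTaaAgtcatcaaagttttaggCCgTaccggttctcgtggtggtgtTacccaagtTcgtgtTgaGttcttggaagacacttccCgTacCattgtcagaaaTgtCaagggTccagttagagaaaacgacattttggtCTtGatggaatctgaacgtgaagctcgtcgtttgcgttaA
*RPS29A* (chrXII:898651-898821, plus strand) and *RPS29B* (chrIV:340628-340798, minus strand) are shown because they encode the pair with the least similar proteins after *RPS7*. Their 171 bases differ at the 14 capitals, and the proteins at 5 residues.
RPS29A: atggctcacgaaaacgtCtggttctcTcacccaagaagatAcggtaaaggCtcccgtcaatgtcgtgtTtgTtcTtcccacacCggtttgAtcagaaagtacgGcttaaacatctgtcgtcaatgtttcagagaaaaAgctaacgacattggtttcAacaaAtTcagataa
RPS29B: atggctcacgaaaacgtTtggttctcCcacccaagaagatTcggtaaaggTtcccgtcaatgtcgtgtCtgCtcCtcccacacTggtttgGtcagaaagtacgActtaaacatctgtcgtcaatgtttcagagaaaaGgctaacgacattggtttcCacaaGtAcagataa
At the other end, a read that lies wholly in a run shared by both copies cannot be placed. Only 27.9% of the 50-base windows of either *RPS6* copy were unique and 53.2% for *RPS4*, so levels and ratios of these genes are uncertain. For 26 of the 56 genes every 50-base window was unique. In 9 pairs the 2 proteins were identical and in 15 they differed.

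A form of the site that Rap1 is known to bind, CACCC and ACA with any 2 bases between them, was searched on both strands in the 500 bases before each start codon. It occurred before 11 of the 56 genes (19.6%) and before 134 of all 6008 coding genes (2.23%). Both copies held it in the pairs *RPS16* and *RPS10*, whose windows are shown with the match in capitals. They lie at chrXIII:551610-551639 for *RPS16A*, chrIV:308133-308162 for *RPS16B*, chrXV:866748-866777 for *RPS10A* and chrXIII:732214-732243 for *RPS10B*. Each is read in R64 along the strand of its gene, which is minus for *RPS16B* and plus for the others, and in the *RPS10* windows the match is on the opposite strand.
RPS16A: tacatattggCACCCATACAttataaaatc
RPS16B: tcagaaaaaaCACCCATACAtgttgaaaaa
RPS10A: attctgggttTGTATGGGTGttacaccggt
RPS10B: acatcgcgcaTGTGTGGGTGtatatgccct
The pairs did not move alike. With the TMM scaling and the test described below, both *RPS16* copies rose between early and late log, by 0.97 and 1.06 on the log2 scale. Neither *RPS10* copy passed (0.07 and -0.01). By library totals *RPS16B* was called higher and *RPS10A* lower, and *RPS16A* and *RPS10B* were not called. A match describes the letters and says nothing of what binds there.

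The depth was high for all members. Gene counts per library ran from 22830165 to 34358259, and no member had fewer than 1410 counts in any library. Levels are given as CPM, counts scaled to a common library size after TMM normalization, which sets the libraries to a common level on the assumption that most genes do not change. The TMM factors were 1.36 to 1.47 for early, 0.700 to 1.01 for mid and 0.878 to 0.902 for late log, so the choice between TMM and plain library totals matters for any statement about the whole family. Reads that matched several places, which are left out of the counts, were 7.60% to 9.18% for early, 9.56% to 11.2% for mid and 7.46% to 7.55% for late log. Sequencing was done in 3 runs. Run 1 held early log 1 and 2, run 2 held mid log 1 to 3, and run 3 held early log 3 beside the late log libraries. The mid log subphase and run 2 therefore cannot be told apart. Early log 3 and mid log 1 stood apart from the other libraries of their groups, and the main counts of genes called below are also given without them. The paper calls its deviating samples early log C and mid log A. It places them at the dense end of the early log range and the thin end of the mid log range. Its letters are taken here as replicate numbers.

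Together the 56 genes took 15.21%, 15.02% and 10.04% of the gene counts in early log 1, 2 and 3. In mid log they took 9.75%, 9.08% and 9.53%, and in late log 13.8%, 12.9% and 13.5%. All 3 mid log libraries were below every other library, with early log 3 just above them. The group means were 13.4% ± 2.93 (SD, n = 3) in early log, 9.45% ± 0.342 in mid log and 13.4% ± 0.436 in late log. With the 10 most abundant other genes of each library set aside, the shares were 11.9% to 16.8% for early, 12.2% to 12.8% for mid and 15.95% to 16.77% for late log, and early log 3 then lay below the mid log libraries. Early log 3 was the lowest early library in 55 of the 56 genes by CPM, with *RPS7B* the exception, and in 53 by share of counts. Fewer messages per cell and fewer cells with them cannot be told apart in such bulk samples.

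**Figure D1:**
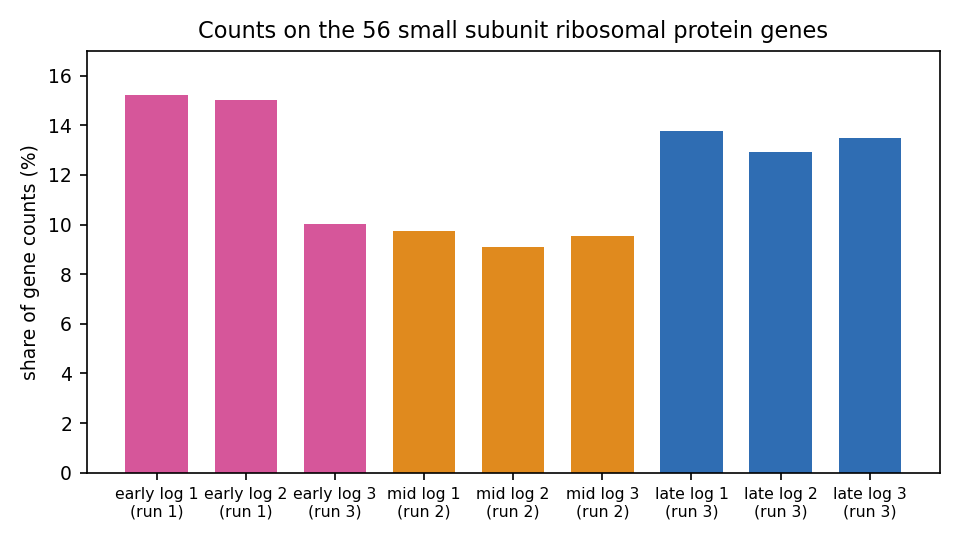
Share of all gene counts (%) that fell on the 56 small subunit genes, as a bar for each of the 9 libraries, with the sequencing run under each name. The mid log bars (9.08% to 9.75%) are the lowest, and early log 3 (10.04%) is far below the other early log libraries (15.02% and 15.21%).

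The genes differed widely in level. Per kilobase of coding sequence, the mean over the 9 libraries ran from 444.3 CPM for *RPS9A* to 18135 CPM for *RPS31*, which is made as a fusion to ubiquitin, a range of 40.8-fold. *RPS12*, a protein of the beak of the head, followed *RPS31* with 16118 CPM per kilobase and *RPS14A*, on the platform near the end of the 18S rRNA, with 10784. Next to the bottom stood *RPS7B* with 486 CPM per kilobase. Of the 8 single genes, *RPS20* had the lowest such level, 4188.

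Late over early log gave the most calls among the members by TMM, but not by library totals, where 16 were called against 20 for late over mid log and 15 for mid over early log. A gene is called here when its p from edgeR's quasi-likelihood test, adjusted by Benjamini-Hochberg over all tested genes, is below 0.05. By this rule late log exceeded early log in 27 of the 56 genes and was below it in 3, but with library totals in place of TMM it was above in 5 and below in 11. By library totals 14.1% of all genes were higher and 55.3% lower. By TMM 33% were higher and 39.2% lower, 72.1% in all, so the share of members called in either direction (53.6%) was below the background and that of members called higher (48.2%) above it. The median log2 fold change of the members was 0.50 against -0.08 for all genes, and with library totals -0.09 against -0.68. The difference between members and all genes was thus 0.58 and 0.59 under the 2 scalings. A change of scaling shifts all genes by about the same amount, so these values had to be close. With a trend with coding length subtracted, as described below, the difference was -0.05. In 37 members every late value lay above every early value and in 3 below, against 36.2% and 40.6% of all genes. All 5 genes that were higher by library totals, *RPS15*, *RPS16B*, *RPS22A*, *RPS27A* and *RPS27B*, were among the 27, of which 21 kept their sign under that scaling, and all 3 that were lower by TMM, *RPS7B*, *RPS20* and *RPS26B*, were among the 11.

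*RPS27B* (YHR021C), which encodes a zinc-binding protein of the body, rose most. It had 1664, 1705 and 1039 CPM in early log 1, 2 and 3, 1078, 2250 and 2374 in mid log, and 4158, 4138 and 3931 in late log. Every late log library was above all 6 others, and late exceeded early log by 1.42 ± 0.21 (SE) on the log2 scale (adjusted p = 0.000703 with edgeR). Its copy *RPS27A* (YKL156W) was less abundant, with 423, 390 and 348 CPM in early log, 270, 373 and 413 in mid log, and 1025, 878 and 966 in late log. Here too late log stood clear of the rest, by 1.25 ± 0.12 over early log (adjusted p = 0.000139 with edgeR). *RPS22A* (YJL190C), a protein of the body that binds the central domain of the 18S rRNA, had 2541, 2657 and 1737 CPM in early log, 2246, 3983 and 4260 in mid log, and 5709, 5072 and 5358 in late log. The late log values again lay above all others, with a log2 fold change over early log of 1.17 ± 0.19 (adjusted p = 0.00111 with edgeR).

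*RPS7B* (YNL096C) fell most. It had 427, 433 and 442 CPM in early log, 161, 119 and 245 in late log, and 525, 82.6 and 69.2 in mid log 1, 2 and 3. The early and late libraries did not overlap, while mid log 1 was above early log and mid log 2 and 3 were the lowest of all. The log2 fold change of late over early log was -1.37 ± 0.24 (adjusted p = 0.00189 with edgeR). *RPS20* (YHL015W), which sits in the head near the mRNA entry side and is marked with ubiquitin when ribosomes collide, had 2984, 2985 and 1716 CPM in early log, 1564, 399 and 315 in mid log, and 1237, 972 and 1623 in late log. It was lower in every late than in every early library, by -1.06 ± 0.27 (adjusted p = 0.00958 with edgeR). *RPS26B* (YER131W), whose protein touches the mRNA upstream of the start codon at the exit side, had 1226, 1094 and 833 CPM in early log, 554, 457 and 437 in mid log, and 777, 687 and 746 in late log. All early values were the highest and all mid values the lowest, and late was below early log by -0.57 ± 0.16 (adjusted p = 0.015 with edgeR). The calls of *RPS7B* and *RPS20* were lost in a fit of all 9 libraries (-1.31 and -1.004), and that of *RPS26B* without early log 1 (-0.44), early log 2 (-0.54), late log 2 (-0.53) or late log 3 (-0.57). A fit with the run as a term compares late log with early log 3 alone, so its calls are not given. Each of these genes was lower in every late log library than in early log 3, *RPS7B* by -1.40 in the mean.

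**Figure D2:**
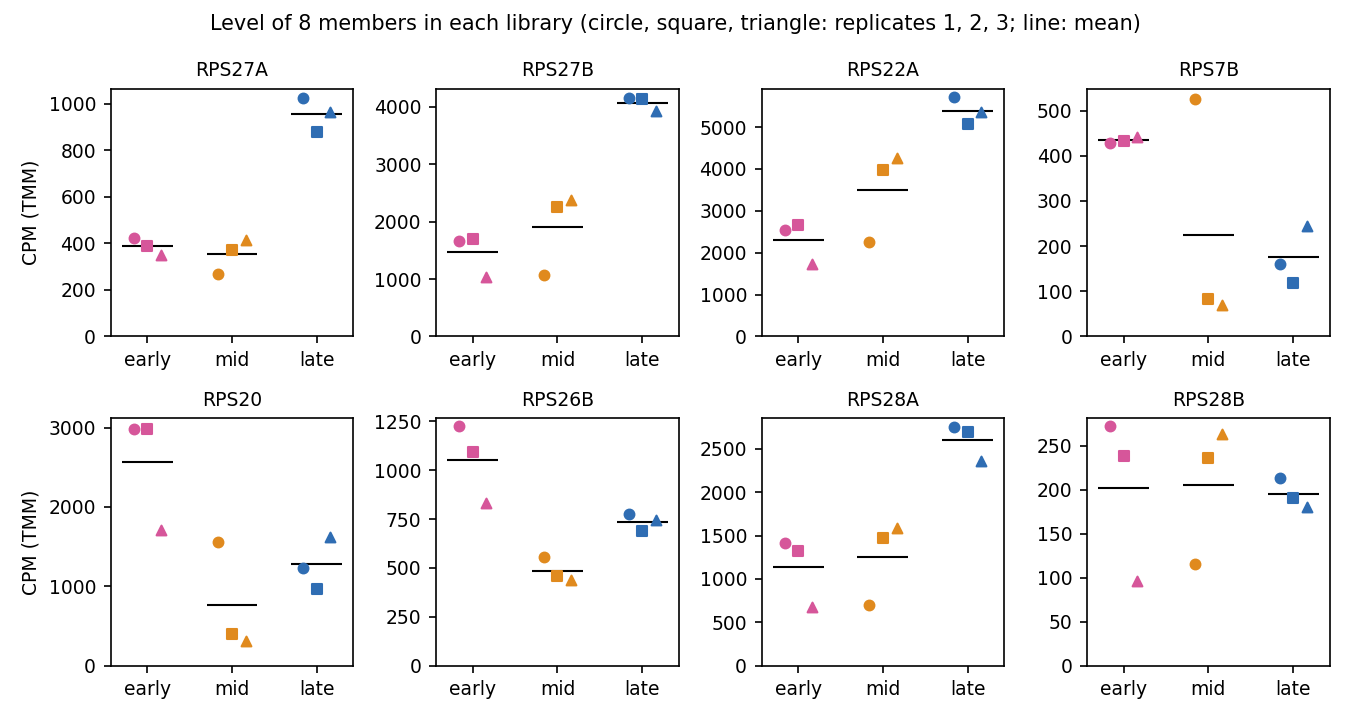
TMM-scaled CPM of 8 genes in each library (circle, square and triangle for replicates 1, 2 and 3 of early, mid and late log, line for the mean, axes from 0). *RPS27A*, *RPS27B*, *RPS22A* and *RPS28A* are highest in all 3 late log libraries, while mid log 1 lies on the far side of the early log libraries from mid log 2 and 3 for *RPS7B* and near early log 3 for *RPS28A* and *RPS28B*.

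The single-copy genes have no second copy that could share their reads. *RPS15* (YOL040C), in the head, had 2740, 2757 and 2515 CPM in early log, 3358, 4336 and 4859 in mid log, and 5332, 5643 and 6087 in late log. In these TMM values the 3 groups did not overlap and followed the order of growth. Late over early log was 1.04 ± 0.13 (adjusted p = 0.000356 with edgeR). The steps through mid log did not pass, with 0.66 for mid over early log (adjusted p = 0.0675 with edgeR) and 0.30 for late over mid log (adjusted p = 0.503 with edgeR). Mid and late log overlapped when scaled by themselves. By library totals *RPS15* was called higher in late log than in early and mid log, and mid over early log was not called. *RPS12* (YOR369C) had 5441, 5504 and 2465 CPM in early log, 4693, 8760 and 9471 in mid log, and 9130, 8458 and 8743 in late log. Late was above early log in every library, by 0.92 ± 0.30 (adjusted p = 0.0259 with edgeR), and overlapped mid log. The call of *RPS12* was lost by library totals (0.34) and without late log 1, 2 or 3 (0.90 to 0.94).

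*RPS31* (YLR167W) had 6980, 7175 and 4171 CPM in early log, 5528, 7090 and 8245 in mid log, and 12475, 11000.3 and 12249 in late log. The late log libraries were above all others, and late over early log was 0.91 ± 0.23 (adjusted p = 0.00853 with edgeR), a call that was lost by library totals (0.32). *RPS3* (YNL178W), which helps to form the mRNA entry channel, had 4059, 4084 and 2412 CPM in early log, 4557, 4629 and 5161 in mid log, and 5713, 5111 and 5751 in late log. Each late value was above each early value, with a fold change of 0.60 ± 0.22 (adjusted p = 0.0402 with edgeR). The call of *RPS3* was lost by library totals, with a value of 0.01, and without late log 1, 2 or 3 (0.57 to 0.64), with no filter (0.55) and with the replicate number as a block (0.63). Without early log 3 it was kept at 0.39.

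*RPS2*, which faces *RPS3* at the entry channel, and *RPS13*, in the body, did not pass with all 6 libraries. *RPS2* (YGL123W) had 6501, 6639 and 4325 CPM in early log, 6667, 9005 and 10401 in mid log, and 8372, 7415 and 8530 in late log, with 0.42 ± 0.19 for late over early log (adjusted p = 0.0848 with edgeR). *RPS13* (YDR064W) had 3551, 3557 and 1750.5 CPM in early log, 2551, 4283 and 4690 in mid log, and 4372, 4268 and 4412 in late log, with 0.51 ± 0.27 (adjusted p = 0.125 with edgeR). In both genes all late values exceeded all early values by TMM, but library totals gave -0.16 for *RPS2* and -0.08 for *RPS13*. Without early log 3 both were called higher, with smaller values of 0.25 and 0.24, and *RPS2* also passed with DESeq2's test (0.47). Among the 8 single genes, *RPS20* alone fell.

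Of the proteins of the head, 14 of 22 genes were called higher and 1 lower between early and late log, against 13 of 34 higher and 2 lower for the body, where 33% of all genes were higher and 39.2% lower. By library totals the head had 2 higher and 2 lower and the body 3 higher and 9 lower, against 14.1% and 55.3% of all genes. The medians were 0.57 and 0.43 by TMM and -0.02 and -0.16 by library totals. By TMM both copies rose in 7 pairs, among them *RPS4*, *RPS14*, *RPS16*, *RPS18*, *RPS22* and *RPS27*, while by library totals both copies were called higher in *RPS27* alone. In 8 pairs 1 copy rose and the other was not called, in 2 pairs 1 copy fell (*RPS7* and *RPS26*), and in 7 neither was called. A call in 1 copy alone is not a tested difference between the copies. The A-to-B ratio, tested below, was called in 3 of those 8 pairs, 1 of the 2 and 2 of the 7. Values for the members that did not pass ran from -0.38 for *RPS26A* to 0.79 for *RPS21A*. Without early log 3, 36 were higher and 9 lower, against 38.4% and 42.4% of all genes. Without late log 3, 17 were higher and 2 lower, against 28.8% and 36%. Within run 3, where early log 3 is the only early library, the mean of late log was above early log 3 in 52 of the 56 genes by TMM and in 43 by library totals. Against the mean of early log 1 and 2, late log was above in 43 by TMM and in 16 by library totals.

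**Figure D3:**
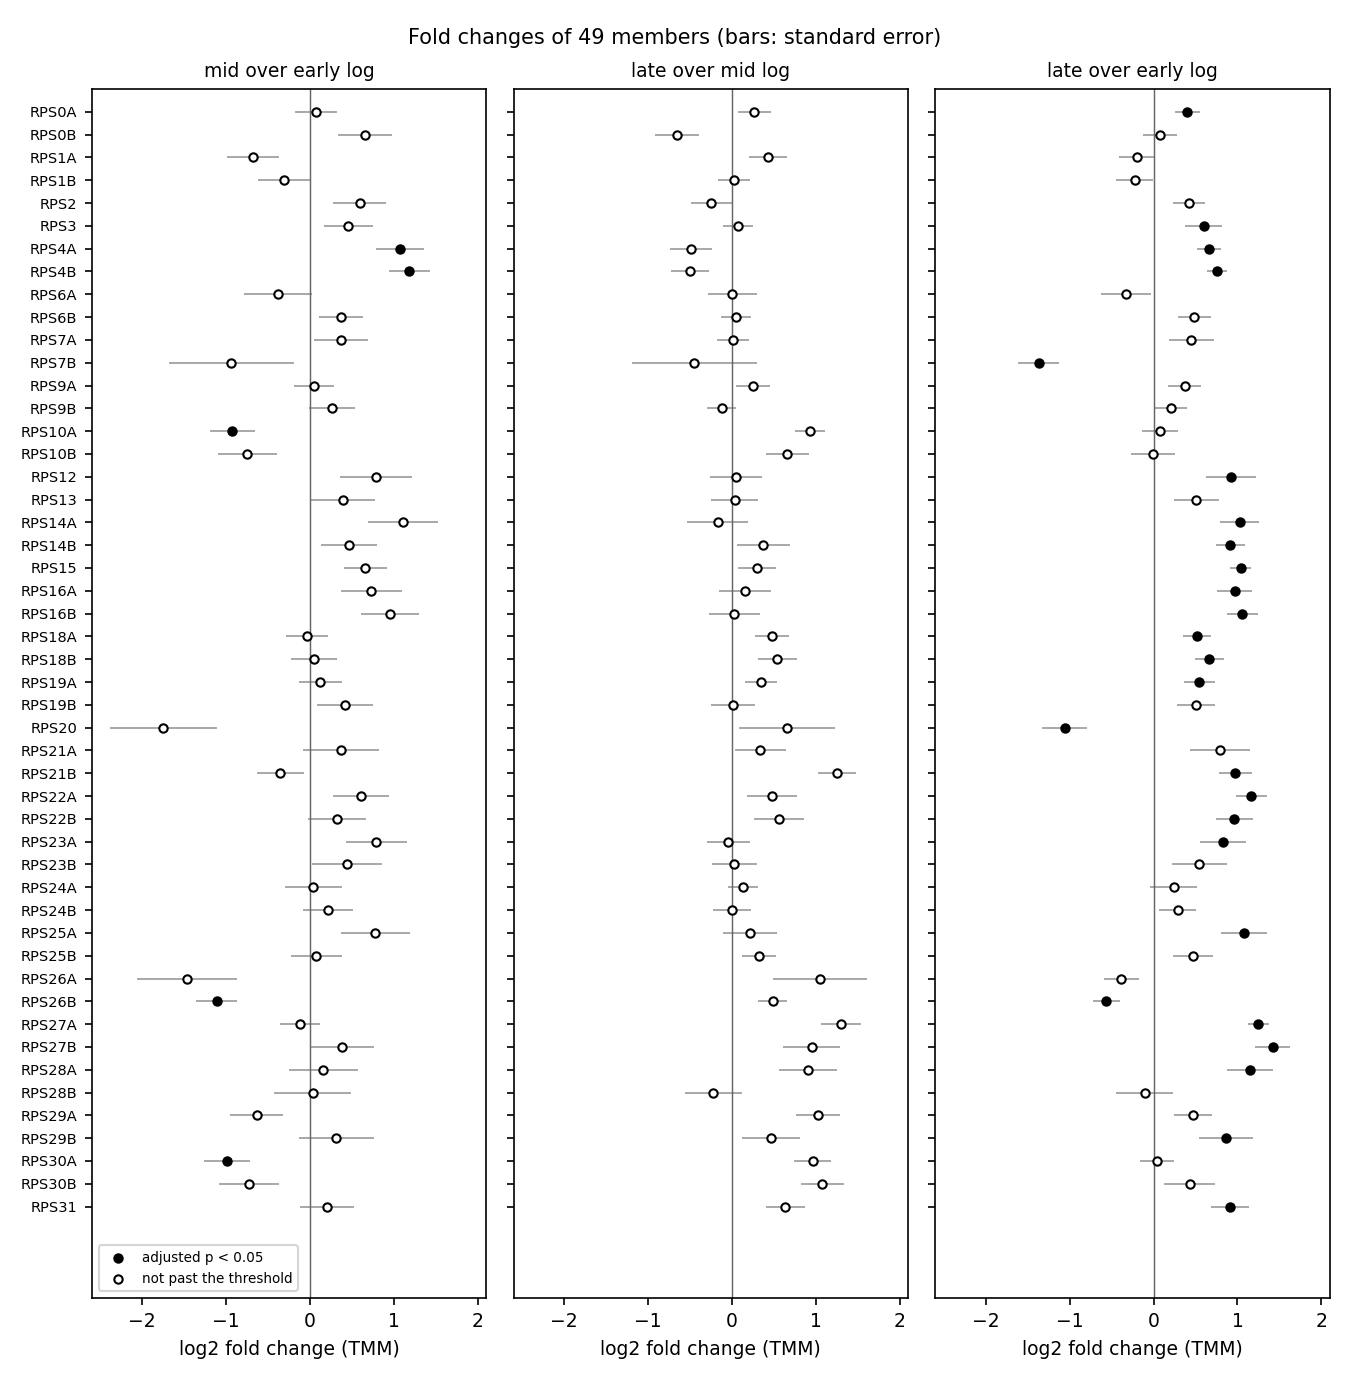
Log2 fold change by TMM scaling of 49 of the 56 genes with its standard error, for mid over early, late over mid and late over early log, filled where edgeR's adjusted p passed 0.05. Of the late over early points shown, 23 are filled to the right of 0 and 3 to the left, but over all 56 genes library totals gave 5 higher and 11 lower against 27 and 3 by TMM.

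Mid and early log gave few calls. By TMM 2 of the 56 genes were higher in mid than in early log and 3 lower, against 20.7% of all genes higher, 24.2% lower and 44.9% in all. With DESeq2's size factors in place of TMM it was 5 higher and 1 lower, against 24.5% and 22.5% of all genes, and *RPS10A* (-0.77) and *RPS30A* (-0.82) no longer passed. Library totals gave 0 higher and 15 lower, against 3.63% and 35.7% of all genes, with *RPS10A*, *RPS26B* and *RPS30A* again among the lower. In 10 members every mid value lay above every early value and in 5 below, against 27.4% and 34.2% of all genes. The median of the members was 0.19 against -0.12 for all genes, and by library totals -0.62 against -0.89. *RPS4A* and *RPS4B*, which encode the identical protein of the body, were the 2 that rose by TMM, and neither passed by library totals. *RPS4A* (YJR145C) had 2130, 2131 and 1632 CPM in early log, 3011, 4334 and 4905 in mid log, and 3228, 3103 and 3333 in late log. All mid values exceeded all early ones, and the fold change was 1.07 ± 0.29 (adjusted p = 0.0237 with edgeR). *RPS4B* (YHR203C) had 1402, 1412 and 1312 CPM in early log, 2486, 3211 and 3578 in mid log, and 2313, 2348 and 2572 in late log. The pattern was that of its copy, with 1.18 ± 0.25 for mid over early log (adjusted p = 0.0145 with edgeR), and only 53.2% of the 50-base windows of each copy are unique.

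*RPS26B*, given above, fell by 1.11 ± 0.24 between early and mid log (adjusted p = 0.0151 with edgeR). *RPS30A* (YLR287C-A), a small protein of the body, had 914, 931 and 564 CPM in early log, 331, 450 and 422 in mid log, and 945, 851 and 779 in late log. Mid log was lowest, and below early log by -0.99 ± 0.28 (adjusted p = 0.0265 with edgeR). *RPS10A* (YOR293W), in the beak of the head, had 1877, 1878 and 1150 CPM in early log, 900.4, 853 and 809.5 in mid log, and 1996, 1546 and 1818 in late log. Mid log was again lowest and late log overlapped early log, with -0.92 ± 0.27 for mid over early log (adjusted p = 0.0287 with edgeR). *RPS20* had the lowest fold change of all members, -1.75, which did not pass (adjusted p = 0.0581 with edgeR), and mid log 1 was 1564 CPM there against 399 and 315 in mid log 2 and 3. *RPS20* passed without mid log 1 (-2.80), without both mid log 1 and early log 3 (-3.01), with the replicate number as a block (-2.10), with DESeq2's test (-1.66) and in a fit of all 9 libraries (-1.75).

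These counts turned on single libraries. Without early log 1, early log 2, mid log 2 or mid log 3, none of the 56 genes was called. The share of all genes called in these settings is not given, so the zeros describe the members alone. The members' medians there were 0.10 to 0.32, against -0.14 to -0.06 for all genes. Without mid log 1 there were 14 higher and 8 lower (33.6% and 42.8% of all genes), and without early log 3 there was 1 higher and 5 lower (16.6% and 20.2% of all genes). Without both early log 3 and mid log 1, a choice made once the values were known and one that leaves 2 libraries a group, 28 genes rose and 17 fell, the 5 genes above among them, against 41.8% and 47.8% of all genes. By TMM mid log 1 was the lowest mid library in 42 of the 56 genes, and by share of counts in 24.

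Late against mid log gave no member past edgeR's adjusted threshold, which 0.46% of all genes passed (0.307% higher and 0.153% lower). At an unadjusted p below 0.05, 14 were higher and 1 lower in late log, against 9.14% and 10.6% of all genes (19.8% in all). In 22 members every late value was above every mid value and in 2 below, against 15% and 12.6% of all genes. DESeq2's test called 6 higher (*RPS10A*, *RPS21B*, *RPS27A*, *RPS29A*, *RPS30A* and *RPS30B*). Its share of all genes is not given, and its medians were 0.26 for the members and -0.12 for all genes. Library totals gave 20 higher and 0 lower, against 6.22% and 1.5% of all genes, and without mid log 1 there were 27 higher and 12 lower, against 28.9% and 27.2%. The members' median was 0.29 against -0.11 for all genes, and 45 of 56 were above 0. *RPS27A* had the highest value, 1.30 (adjusted p = 0.0647 with edgeR), and *RPS0B*, in the body on the solvent side, the lowest, -0.65, both named after their values were seen.

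The size of the late over mid change went with the length of the message. Across the 56 genes, the log2 fold change had a Pearson correlation of -0.67 with the log2 coding length, and across the 514 other genes with a log2 CPM over 8 it was -0.61. These are correlations across genes of the same 6 libraries, which are not independent replicates, so no p is given. The 10 members under 300 bases of coding sequence, among them both copies of *RPS27*, *RPS28*, *RPS29* and *RPS30*, had a median of 0.96. The 29 members of 300 bases or more but under 500 had 0.35, and the 17 of 500 bases or more had 0.01. Without mid log 1 the correlations were -0.40 and -0.44. For late over early log they were -0.22 and -0.26, and for mid over early log 0.29 and 0.15. A trend with coding length was then fitted over all genes in each library and subtracted. This did not free the members of a correlation with length, which became 0.38 for late over early log and 0.52 for mid over early log. After it, late over early log gave 9 members higher and 9 lower with a median of 0.06 against 0.10 for all genes. For late over mid log it gave the members a median of -0.06 against -0.11 for all genes, and the correlation was then -0.34.

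**Figure D4:**
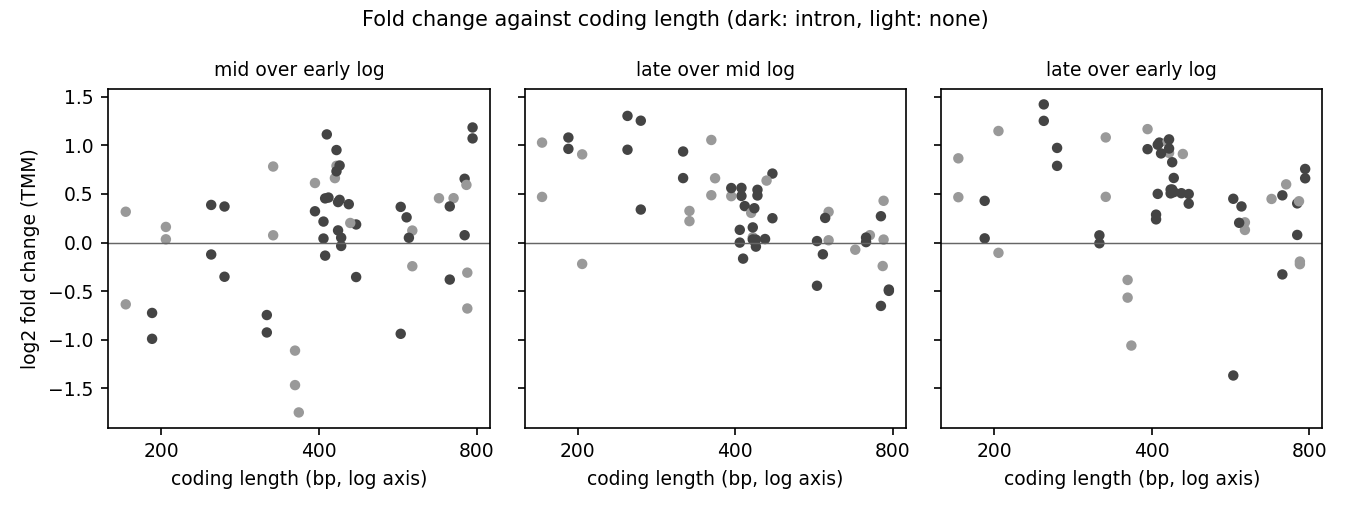
Log2 fold change by TMM scaling of each of the 56 genes against its coding length (log axis, bases; dark for genes with an intron, light for those without), in the 3 comparisons. Late over mid log slopes down most, from a median of 0.96 under 300 bases to 0.01 at 500 bases or more, and the correlation is -0.67 (-0.72 by library totals).

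The balance of copies A and B was compared within each library. Copies of a pair have about the same coding length and lie in the same library, so the ratio does not depend on how libraries are scaled. It was the log2 of the count of A over that of B (0.5 added to each). Copy A was the more abundant in all 9 libraries in 11 pairs and copy B in 6, and in 7 pairs the more abundant copy differed between libraries. The mean ratio exceeded 2-fold in 8 pairs.

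Copy A dominated most in *RPS7*, *RPS14* and *RPS28*. *RPS14A* exceeded *RPS14B*, whose splicing the Rps14 protein is known to repress, with ratios of 3.13, 3.15 and 2.87 in early log, 3.55, 3.78 and 3.75 in mid log and 3.14, 3.28 and 3.14 in late log. Mid log was above all others, and the mean was 9.91-fold. Copy B dominated most in *RPS9*, whose protein bears on the accuracy of decoding, with ratios of -3.58, -3.60 and -3.50 in early log, -3.89, -3.75 and -3.71 in mid log, and -3.29, -3.68 and -3.27 in late log, or 12.0-fold on average. The *RPS9* values of early and late log overlapped. *RPS27* followed with -1.98, -2.13 and -1.58 in early log, -1.996, -2.59 and -2.52 in mid log, and -2.02, -2.24 and -2.02 in late log, and all of these groups overlapped. In *RPS29*, whose coding sequences are printed above, the ratios were -0.74, -0.88 and -0.32 in early log, -1.30, -1.70 and -1.81 in mid log, and -0.99, -1.22 and -1.12 in late log. No *RPS29* group overlapped another, and mid log leaned most to copy B.

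The ratios were tested with limma over 60 pairs of A and B genes, 36 of which do not encode small subunit proteins. Between early and late log, 6 of the 24 pairs changed (25%), against 20 of the 36 others (55.6%), a difference that was not tested. For *RPS28*, whose protein lies at the mRNA exit and is known to bind the *RPS28B* message and speed its decay, the ratios were 2.37, 2.47 and 2.80 in early log, 2.60, 2.64 and 2.59 in mid log, and 3.69, 3.82 and 3.71 in late log. The late log libraries stood clear of the 6 others, which overlapped. The ratio rose by 1.19 ± 0.12 over early log (adjusted p = 0.000424 with limma) and by 1.13 ± 0.07 over mid log (adjusted p = 0.000410 with limma). *RPS28A* was 5.84 times as abundant as *RPS28B* in early log and 13.3 times in late log. *RPS28A* had 1411, 1318 and 675 CPM in early log and 2749, 2699 and 2363 in late log (log2 fold change 1.15 ± 0.27, adjusted p = 0.00694 with edgeR), while *RPS28B* had 273, 238 and 96.8 in early log and 213, 191 and 181 in late log, which overlap (-0.11 ± 0.34, adjusted p = 0.792 with edgeR). These gene-level calls depended on the scaling. By library totals neither copy was called, and with the length trend subtracted *RPS28A* lost its call and *RPS28B* was called lower. The change of the ratio therefore does not show which copy moved. *RPS28* was the only pair called under every alternative run for late over mid log.

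For *RPS7*, the ratios were 2.53, 2.46 and 1.45 in early log, 2.17, 4.99 and 5.32 in mid log, and 4.13, 4.49 and 3.65 in late log. All late values were above all early ones, with mid log 1 among early log, and the change between early and late log was 1.94 ± 0.34 (adjusted p = 0.00413 with limma), which was lost in a fit of all 9 libraries. It came with a fall of *RPS7B* and a value of 0.45 for *RPS7A* that did not pass. *RPS25*, in the head, had 1.55, 1.69 and 1.49 in early log, 1.81, 2.45 and 2.45 in mid log, and 2.16, 2.25 and 2.20 in late log. The early libraries lay below all others, and late over early log was 0.63 ± 0.07 (adjusted p = 0.000745 with limma).

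In the other direction, *RPS6*, the protein that is phosphorylated under the control of TORC1, went from 0.27, 0.16 and -0.20 in early log to -0.58, -0.88 and -0.63 in late log, with -0.14, -0.95 and -1.004 in mid log. Its change from early to late log was -0.77 ± 0.15 (adjusted p = 0.00516 with limma), in a pair of which 27.9% of windows are unique. *RPS30* went from 0.39, 0.49 and 0.88 in early log to 0.05, 0.16 and 0.24 in late log, with 0.39, 0.24 and 0.19 in mid log. Early and late log did not overlap, and the change was -0.43 ± 0.14 (adjusted p = 0.0453 with limma), which was lost without early log 2 and without each late log library.

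Between early and mid log, 3 of the 24 pairs changed (12.5%), against 8.33% of the other pairs. Among them *RPS14* rose by 0.64 ± 0.12 (adjusted p = 0.0358 with limma) and *RPS29* fell by 0.96 ± 0.21 (adjusted p = 0.0457 with limma). None of the 24 was called when early log 1, 2 or 3 or mid log 2 or 3 was left out, 15 without mid log 1, and all 24 without both early log 3 and mid log 1. Leaving out both leaves 2 libraries a group, and 41.8% of all genes were then higher and 47.8% lower. The share of the other pairs with libraries left out is not given, here or for late over mid log. From mid to late log 3 of 24 changed, against 2.78% of the others. These were *RPS28*, *RPS14*, which went back by -0.51 ± 0.09 (adjusted p = 0.0332 with limma), and *RPS21*. *RPS21*, a protein of the body, had -0.35, -0.33 and -1.13 in early log, -0.11, 0.28 and 0.37 in mid log, and -0.68, -0.61 and -0.75 in late log. Mid log was above all other libraries, and late over mid log was -0.86 ± 0.14 (adjusted p = 0.0332 with limma). *RPS28* alone was called when any 1 late log library, mid log 2 or mid log 3 was left out, and 15 pairs without mid log 1.

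In several pairs the ratio of mid log 1 lay apart from mid log 2 and 3 and nearer to early and late log. *RPS26*, named after its values were seen, had ratios of 1.47 in mid log 1, the highest of the 9 libraries, and of -0.40 and -0.21 in mid log 2 and 3, against 0.96 to 1.04 in early log and 0.91 to 1.43 in late log. *RPS0* had -0.19 in mid log 1 and -1.37 and -1.23 in the other two.

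**Figure D5:**
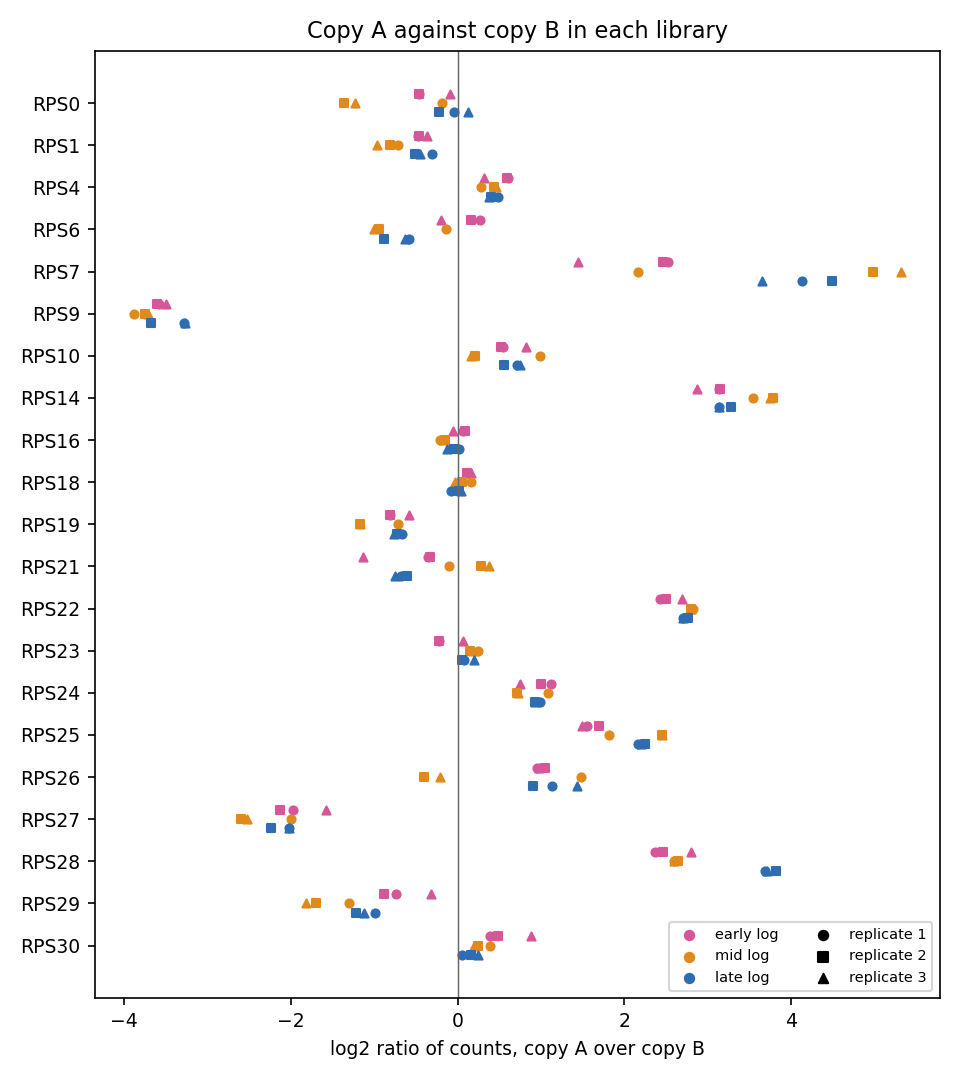
Log2 ratio of the counts of copy A to copy B for 21 of the 24 pairs in each library (pink, orange and blue for early, mid and late log, marker shape for the replicate). *RPS28* shows late log apart from early and mid log, *RPS9* and *RPS27* lie far to the left (copy B) in all 9 libraries, and *RPS7* and *RPS26* show mid log 1 apart from mid log 2 and 3.

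Other gene groups of the pathway are given by the same counts for late over early log, where 33% of all genes were higher and 39.2% lower (14.1% and 55.3% by library totals). Of the 82 large subunit ribosomal protein genes, 28 were higher and 13 lower, with a median of 0.30, and by library totals 10 and 31 with -0.28. Of the 33 genes tested for the mitochondrial small subunit, 15 were higher and 10 lower, with a median of 0.35 (-0.24 by library totals). By library totals 10 of these were higher and 16 lower. Of 21 maturation factors of the small subunit, 2 were higher and 14 lower, with a median of -0.87, and by library totals 0 and 19 with -1.46. Of 18 regulators of ribosomal protein genes, 2 were higher and 13 lower, with a median of -1.35, and by library totals 0 and 16 with -1.95. Among these were the activators *FHL1* (-3.01 ± 0.43), *SFP1* (-2.14 ± 0.15), *IFH1* (-1.70 ± 0.35) and *RAP1* (-1.22 ± 0.13), and the repressors of ribosome biogenesis genes *TOD6* (-3.46 ± 0.23), *DOT6* (-2.68 ± 0.34) and *STB3* (-2.30 ± 0.40), which fell in late log by edgeR's test, with adjusted p from 4.85e-05 to 0.00359. *HMO1*, *ESA1*, *GCN5*, *YAK1*, *SCH9* and *TOR1* fell as well, and *CRF1* (-0.09), *KOG1* (-0.04) and *TOR2* (-0.08) did not pass by TMM but were lower by library totals (-0.69, -0.64 and -0.68). *RPD3*, a histone deacetylase, rose by 0.54 ± 0.10 by TMM and was at -0.06 by library totals, and *MRS6*, which binds Sfp1, rose by 0.35 ± 0.13 and was at -0.25.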

How the data were processed

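Polyadenylated RNA of 9 libraries was sequenced from single ends by the authors with a directional kit, aligned to R64-1-1 with STAR and counted per gene with HTSeq. The deposited values are raw counts for 7127 genes. The 5 summary lines of each file were left out. The submitters' notes give HTSeq 0.12.3, the methods another version. How HTSeq treated strand and features, the release of the annotation and the length of the reads are not given in the sources used here, so reads of overlapping genes may be shared.

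Counts were analysed with edgeR 4.0.16 (filterByExpr, TMM, quasi-likelihood test on the 6 libraries of each comparison, Benjamini-Hochberg adjustment over all genes tested) in R 4.3.3, and A-to-B ratios with limma 3.58.1 over 60 pairs with at least 10 counts in every library. All 56 members were tested in every comparison. The F statistic gave the standard errors of the fold changes. Tables and plots used Python 3.11.15 (biopython 1.88, pandas 2.3.3, numpy 2.4.6, matplotlib 3.10.9). Sequences, coordinates and windows of 50 bases came from the reference R64 genome and its RefSeq annotation. With 3 libraries a group, an exact permutation test reaches 0.1 at best, so p-values rest on the models. The steps were tested on simulated counts. Replicates of a group differed by more than sampling noise, with a chi-square per degree of freedom from 8.65 (early log 1 and 2) to 662 (mid log 1 and 2), and none was counted as 1 sample.

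The members and the gene lists were chosen with earlier results of these data known. Values in every library are given for the 3 largest rises and falls among members past the threshold in each comparison, the 8 single-copy genes, the 3 pairs with the largest change of ratio in each direction, and the 3 pairs with the highest and the lowest mean ratio. Of these, 1 single-copy gene and the ratio of 1 pair are among 7 members that are counted in all totals but not reported by name here. Genes outside the members are given as lists, with names for regulators. The alternatives were DESeq2 1.42.0 size factors and test, library totals, filters (none, or 10 counts in every library), a fit of 9 libraries, the replicate number as a block, the run as a term, other added counts (5) or minimum counts (100) for ratios, and each library left out. Subtraction of a trend with coding length, and leaving out both early log 3 and mid log 1, were added after seeing the data.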

Additional observations from a re-analysis of the deposited data

How the results depend on the processing

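Calls with mid log depended on single libraries. For mid over early log, 5 members passed in all and 10 passed with DESeq2's test, 11 in a fit of all 9 libraries, 15 with library totals, 8 with the length trend subtracted and 45 without both early log 3 and mid log 1. For DESeq2's test, the 9-library fit and the length trend, no share of all genes called is given in any comparison. Counts under them describe the members alone. The members' medians there were 0.31, 0.18 and 0.14 for mid over early log, against 0.06, -0.12 and 0.12 for all genes. Leaving out 1 library at a time gave 0 to 22. For late over mid log, 0 passed against 6, 5 and 20 under the same first settings (DESeq2's test, 9 libraries, library totals), and 0 to 39 with 1 library left out. Where leaving out 1 library gave 0 in either comparison with mid log, the share of all genes called is not given. For late over early log, 30 passed, 16 with library totals and 18 with the length trend subtracted, after which the members' correlation with length was 0.38 and not 0, and 19 to 45 with 1 library left out. With the run as a term, the members' median for late over early log was 1.09 against -0.02 for all genes. It was 0.50 against -0.08 without that term. The term leaves early log 3 as the only early library compared. Among the single-copy genes named, directions reversed with library totals in late over early log for *RPS2* (-0.16) and *RPS13* (-0.0761). The regulators *RPD3* and *MRS6* reversed as well. Of all members, 47 were above 0 by TMM and 22 by library totals, against 2844 and 1743 of all 5954 genes. Counts of changed pairs under the alternatives cover the members alone, with no share of the other pairs beside them. The number of pairs whose A-to-B ratio changed was 3 for mid over early log, 11 in a fit of 9 libraries, 24 without both early log 3 and mid log 1 and 0 to 15 with 1 library left out. It was 3 for late over mid log and 1 to 15 with 1 library left out, and 6 for late over early log and 5 to 12 with 1 library left out. With the run as a term, early log 3 is the only early library compared, so the number of pairs called is not given. Without the 10 most abundant other genes, the members' share had means of 12.4% in mid log and 16.4% in late log. Beyond these, the causes were not tested.

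The main tests did not pair samples by replicate number. Deviations of same-numbered libraries from their group means correlated between -0.358 and 0.380. Differently numbered libraries were not compared in this way, so the values cannot decide whether the numbers pair the samples. As a replicate block the replicate number gave 5 members called for mid over early log, 0 for late over mid log and 28 for late over early log, and 0, 1 and 8 pairs. No shares of all genes or of other pairs are given for the block. In the same order, the members' medians were 0.20, 0.31 and 0.53, against -0.16, -0.01 and -0.07 for all genes.

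The counts per library are high enough that differences between libraries, rather than counting error, limit these values. Reads matching both copies are lost from copies such as those of *RPS4* and *RPS6*, and mid log cannot be told apart from run 2.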

Other observations

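Genes with and without an intron were compared by their counts. Of the 36 members with an intron, 18 were called higher and 1 lower between early and late log, with a median log2 fold change of 0.51 by TMM, where 33% of all genes were higher and 39.2% lower. By library totals 3 were higher and 5 lower, with -0.08, where 14.1% of all genes were higher and 55.3% lower. Of the 20 without one, 9 were higher and 2 lower, with 0.46, and by library totals 2 and 6 with -0.13. Of the 11 members with the Rap1-type letters before the start codon, 5 were higher and 0 lower, with a median of 0.50, against 22 higher and 3 lower of 45 without them, with 0.48. By library totals it was 1 higher and 1 lower against 4 higher and 10 lower, beside the same 14.1% and 55.3% of all genes. These groups were not tested against each other.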
